A study of Mus musculus with 2 samples.

Results

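Long intergenic noncoding RNA (lincRNA) genes are described here in E14 cells, a line of mouse embryonic stem cells (mESCs), as the genes that GENCODE vM21 annotates as lincRNA on the autosomes and that overlap no protein-coding gene. Of 5854 lincRNA genes in the annotation, 5209 lie on autosomes and 484 of these overlap a protein-coding gene, which leaves 4725 genes of the 51229 annotated on autosomes. The cells were grown in serum with LIF, without any perturbation, and genomic DNA of 2 passages of the same line was read as replicate 1 and replicate 2. SCoTCH-seq reads cytosine (C), 5-methylcytosine (M) and 5-hydroxymethylcytosine (H) on both strands of the same DNA fragment, so each call gives a CpG site 1 of 9 CpG states, with the plus strand written first. These are grouped here as unmodified (CC), symmetrically methylated (MM), hemimethylated (MC/CM), hydroxymethylated opposite C (HC/CH), hydroxymethylated opposite M (HM/MH) and symmetrically hydroxymethylated (HH). A single line in a single condition allows no comparison between samples, and DNA states do not measure transcription.

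LincRNAs are transcribed from their own promoters between protein-coding genes, and are usually spliced and polyadenylated like mRNAs. They are known for low and cell-type-restricted transcript levels, although a few, such as Malat1 and Neat1, are abundant in most cells. Unmethylated CpG-rich promoters are typical of genes active in many tissues, whereas CpG-poor promoters are often methylated. Tet enzymes oxidise 5-methylcytosine to 5-hydroxymethylcytosine, which in mESCs is found at enhancers and in the bodies of transcribed genes.

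Promoter sequences of 3 listed lincRNA genes show how different the sites behind these values are. Capitals mark the CpG dinucleotides that carry the CpG states, and each sequence runs 5′ to 3′ in the direction of the gene, from 250 bases before its start. Among listed genes with enough sites, Snhg10 and Lncenc1 were among the highest in promoter CC, and H19 was called methylated. The sequences are those of GRCm38.p6 (RefSeq), and those of Snhg10 and Lncenc1 are identical to the RefSeq promoter table. For H19 no identical match was recorded there.
Snhg10, chr12:105032230-105032529, minus strand: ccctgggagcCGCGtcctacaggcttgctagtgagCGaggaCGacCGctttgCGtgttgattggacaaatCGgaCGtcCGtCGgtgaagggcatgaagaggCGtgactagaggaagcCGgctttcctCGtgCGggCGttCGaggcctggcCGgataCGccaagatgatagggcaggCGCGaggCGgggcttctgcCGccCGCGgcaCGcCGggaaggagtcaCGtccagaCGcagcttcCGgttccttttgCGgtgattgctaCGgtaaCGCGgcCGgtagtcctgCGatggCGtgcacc
Lncenc1, chr13:97434720-97435019, plus strand: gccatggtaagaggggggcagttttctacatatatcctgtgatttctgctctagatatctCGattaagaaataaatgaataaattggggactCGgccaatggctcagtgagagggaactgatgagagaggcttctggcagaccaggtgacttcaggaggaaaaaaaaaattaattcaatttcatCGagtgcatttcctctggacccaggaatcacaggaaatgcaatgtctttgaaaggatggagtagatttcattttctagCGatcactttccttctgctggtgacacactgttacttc
H19, chr7:142578094-142578393, minus strand: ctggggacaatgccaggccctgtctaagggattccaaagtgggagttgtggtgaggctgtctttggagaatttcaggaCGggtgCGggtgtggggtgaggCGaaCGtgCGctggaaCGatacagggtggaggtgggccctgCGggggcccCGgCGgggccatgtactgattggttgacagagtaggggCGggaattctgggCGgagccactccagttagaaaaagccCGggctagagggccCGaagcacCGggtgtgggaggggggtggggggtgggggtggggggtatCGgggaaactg
The Snhg10 stretch holds 36 CpG sites at a GC content of 64.7%, and the promoter within 1 kb was 100% and 99.5% CC in replicates 1 and 2. Lncenc1 holds only 4 CpG sites at a GC content of 42.3%, yet its promoter was 98.9% and 97.5% CC. H19 holds 15 CpG sites at a GC content of 64.3%, and its promoter was 52.7% and 52.8% MM. Nearly unmodified promoters thus occurred with many and with few CpG sites in the printed stretch. The CC levels cover the wider promoter, with 74 and 29 covered sites at Snhg10 and 26 and 10 at Lncenc1. That of Lncenc1 is classed below as intermediate in CpG content.

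The autosomes carried 141159011 calls at 13366464 CpG sites in replicate 1 and 31102023 calls at 4882356 sites in replicate 2, with median depths of 10 and 6 calls per site. Sites under 5 calls had been removed from each replicate. LincRNA promoters, taken as the stretch within 1 kb of the gene start, kept 60.9% and 21.4% of their reference CpG sites in replicates 1 and 2, exons 72.5% and 26.6%, and introns 68.4% and 24.4%. Of the 4725 genes, 4542 had a covered promoter site in replicate 1 and 4340 in replicate 2. Hydroxymethylated calls need care: on the synthetic duplexes of known state, 4.51% of MM calls were read as HM/MH in replicate 1, against 0.467% in replicate 2. Misreading of MC as HC likewise stood at 3.49% in replicate 1 against 0.615% in the other. HC was read as HM more often in replicate 2, at 3.98% against 1.12% in replicate 1. HM/MH levels are therefore also given after correction for the miscall rates measured in each replicate. HC/CH levels are printed as called. After correction HC/CH was 4.10% and 4.21% at lincRNA promoters, against 2.00% and 2.42% at protein-coding promoters, and 3.34% and 3.16% in lincRNA introns, against 4.22% and 3.98%, and each HC/CH difference recomputed this way kept its direction and its side of the threshold. As a check of the cell type, the promoter of Pou5f1, the pluripotency factor Oct4, was 98.5% and 100% CC, and that of Nanog, another such factor, 83.6% and 88.1%, whereas that of Alb, the liver albumin gene, was 11.6% over 16 sites and 7.29% over 4 sites. Myod1, a muscle regulator with a CpG-rich promoter, had 68.7% and 54.4% CC.

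LincRNA promoters were far less often unmodified than promoters of the 20807 autosomal protein-coding genes, and they held more of every modified class. The CC level, the mean of the percentages of calls over sites, was 39.4% and 35.9% at lincRNA promoters in replicates 1 and 2, and 79.7% and 75.3% at protein-coding promoters. MM was 42.4% and 45.9% at lincRNA promoters and 13.1% and 16.1% at protein-coding promoters. Hemimethylation also differed, with 9.58% and 11.1% MC/CM at lincRNA promoters against 3.49% and 4.75%. All of the hydroxymethylated classes lay on the same side as the methylated classes. HC/CH was 4.48% and 4.23% against 2.21% and 2.52%, a mean difference of 1.99 ± 0.400 percentage points (SD, n = 2). HM/MH as called was 3.72% and 2.62% against 1.33% and 1.25%, and after correction 1.69% and 2.32% against 0.704% and 1.11%. HH was the rarest class, at 0.466% and 0.240% against 0.172% and 0.129% as called, and at 0.0908% and 0.223% against 0.0479% and 0.115% after correction, since 0.709% of MM calls were read as HH on the duplexes in replicate 1. Each of the 6 classes differed in the same direction on all 19 autosomes in both replicates as called (adjusted p = 6.54e-06 for each, exact sign-flip permutation test over autosomes, two-sided). The HH difference no longer passed with at least 10 calls per site (larger adjusted p = 0.491, exact sign-flip test). With all annotated transcript starts in place of the gene's first start the gaps kept their direction and were smaller, with mean differences over replicates of -19.6 percentage points for CC, 14.6 for MM and 0.758 for HC/CH. Here and in what follows the test was made within each replicate and adjusted over all tests of a comparison, and autosomes are blocks of a library, not replicates.

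**Figure D1:**
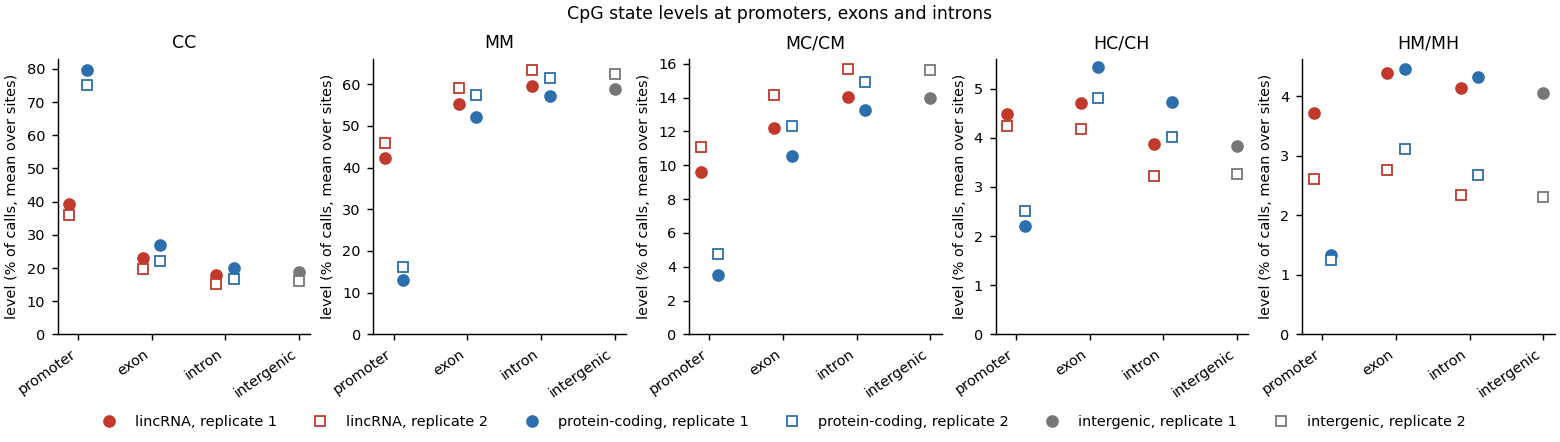
Mean level of 5 CpG state classes (percent of calls, mean over sites, y axes from 0) at promoters, exons and introns of lincRNA genes (red) and protein-coding genes (blue) and in intergenic DNA (grey), with filled circles for replicate 1 and open squares for replicate 2. The gap in CC is widest at promoters (39.4% against 79.7% in replicate 1), and HC/CH is higher in lincRNA than in protein-coding promoters but lower in lincRNA exons and introns.

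CpG content differed between the gene classes and went with these levels. Promoters were called dense where some 500-bp window had an observed-to-expected CpG ratio over 0.75 and a GC content over 55%, poor where no window reached a ratio of 0.48, and intermediate otherwise. Dense promoters made up 6.77% of lincRNA promoters (320 genes) and 48.8% of protein-coding promoters, and poor promoters 69.4% (3279 genes) and 32.6%. Within dense promoters, lincRNA genes had 90.5% and 86.9% CC against 92.1% and 88.8% at protein-coding genes, a difference that did not pass the threshold (adjusted p = 0.0815 and 0.0799, exact sign-flip test). The unadjusted 95% interval of that difference, averaged over autosomes, ran from -2.87 to 0.0393 percentage points in replicate 1 and from -3.69 to -0.0313 in replicate 2. The CC difference passed with genes weighted equally (mean over replicates -4.54, larger adjusted p = 0.0279, exact sign-flip test), with promoters of 500 bp either side (-2.58, larger adjusted p = 0.00351) and with lincRNA genes of at least 1 kb and 2 exons (-2.35, larger adjusted p = 0.0192). With all transcript starts, where the class is still that of the first start, it was 24.3 in the opposite direction (larger adjusted p = 7.63e-06, exact sign-flip test). Covered sites were fewest in dense promoters, at 37.0% and 11.97% of the reference CpG sites of dense lincRNA promoters. Of the 320 dense lincRNA promoters, 177 lay head to head within 5 kb of a protein-coding start, called divergent below. Sites shared with a dense protein-coding promoter counted on both sides of the comparison. At the 132 dense lincRNA promoters with no protein-coding start within 5 kb, CC was lower, at 86.3% and 82.1%.

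With promoters taken at the gene's first start, those of intermediate CpG content carried the largest difference in CC. LincRNA genes had 42.0% and 40.3% CC in this class, and protein-coding genes 71.3% and 67.4%. MM was 39.98% and 41.8% against 18.3% and 21.0%, and HC/CH was 4.97% and 4.91% against 3.47% and 3.65%. LincRNA promoters of intermediate content were therefore more methylated and more hydroxymethylated than protein-coding promoters classed alike (adjusted p at most 2.26e-04 for CC, MM, HC/CH and HM/MH in both replicates, exact sign-flip test). The class did not equalise CpG content: its 1126 lincRNA promoters held 40323 reference CpG sites, and its 3876 protein-coding promoters 187999. In poor promoters the gap was small: CC was 23.1% and 20.5% against 28.6% and 24.5%, and MM was 54.5% and 58.1% against 49.9% and 53.9%. These differences in CC and MM passed in both replicates (adjusted p at most 8.51e-04, exact sign-flip test). With at least 10 calls per site they did not (larger adjusted p = 0.341 and 0.333, exact sign-flip test), nor did HC/CH and HM/MH in the intermediate class (0.0787 and 0.121). With all transcript starts the CC difference, as a mean over replicates, was -12.5 percentage points in poor promoters in place of -4.78. In intermediate promoters it was -15.2 in place of -28.2. The intermediate differences were then also smaller for MM, at 11.4 in place of 21.2, and for HC/CH, at 0.728 in place of 1.38. HC/CH in poor promoters was 5.03% and 4.43% at lincRNA genes and 5.08% and 4.71% at protein-coding genes, which did not differ past the threshold (adjusted p = 0.512 and 0.0815, exact sign-flip test). The interval of that HC/CH difference was -0.336 to 0.168 percentage points in replicate 1 and -0.539 to 0.00647 in replicate 2.

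Around the start site, the classes of lincRNA promoters had unlike shapes. At dense promoters CC was 95.8% and 95.3% in the 200-bp bin just upstream of the start, against 37.4% and 34.2% in the bin centred 5900 bp upstream. HC/CH in the same bins was 0.804% and 0.789%, against 4.46% and 4.43%. At intermediate promoters CC peaked at 49.6% and 47.3% in the bin just upstream of the start, and HC/CH there was 4.92% and 5.12%, above the 4.38% and 4.24% found 5900 bp upstream. At poor promoters CC in the same bin was 26.4% and 23.0%, above the 22.04% and 18.99% found 5900 bp upstream. HC/CH at poor promoters had its maximum within the 200 bp downstream of the start, at 5.42% and 5.19%, against 4.57% and 4.28% at 5900 bp upstream. A dip of HC/CH at the start was thus seen at dense lincRNA promoters and not at intermediate or poor ones. These profiles are a description and were not tested.

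**Figure D2:**
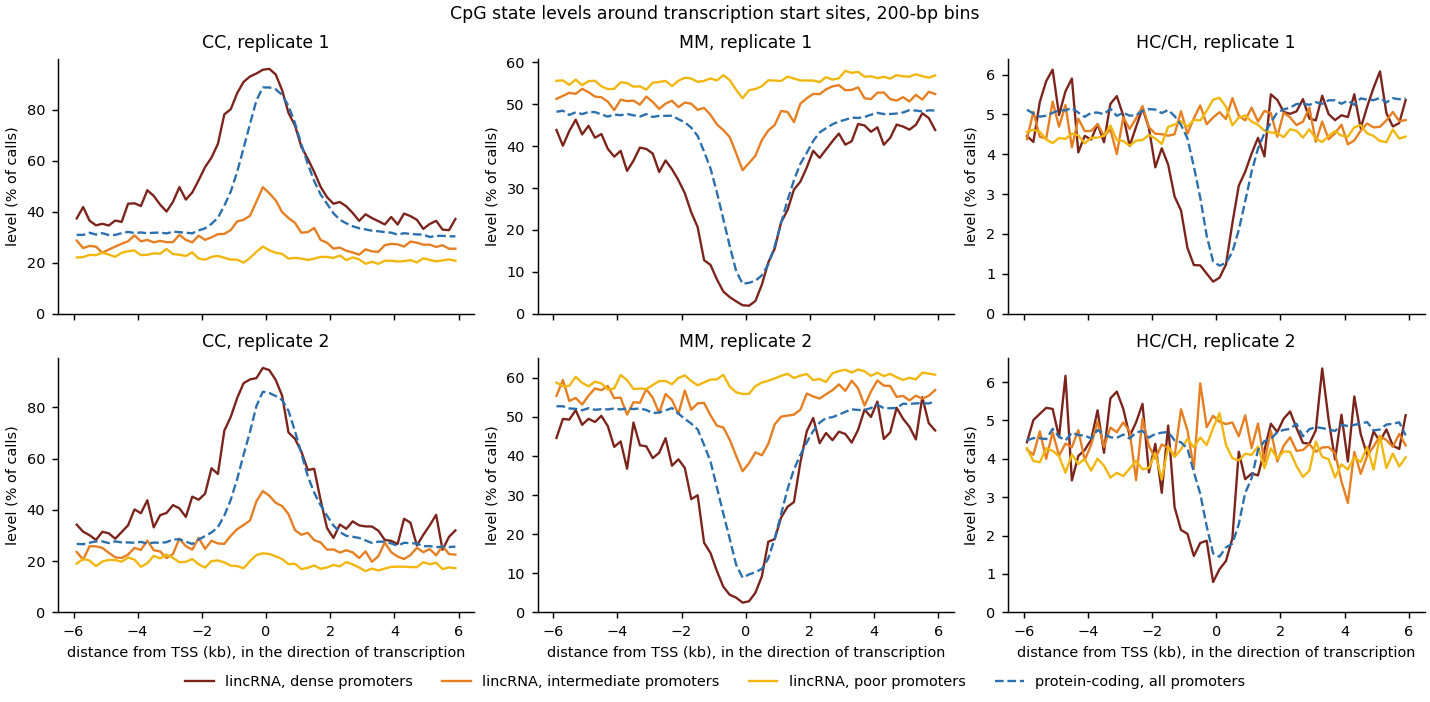
Level of CC, MM and HC/CH (percent of calls, y axes from 0) against distance from the transcription start site (TSS, kb, 200-bp bins) for replicate 1 (top) and replicate 2 (bottom), at dense (dark red), intermediate (orange) and poor (yellow) lincRNA promoters and at all protein-coding promoters (dashed blue). CC at dense lincRNA promoters is 95.8% and 95.3% just upstream of the TSS, while at poor lincRNA promoters it is 26.4% and 23.0% there.

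Promoter by promoter, few lincRNA genes had an unmodified start. With at least 5 covered sites in each replicate, a promoter was called unmodified where CC reached 80% in both replicates, methylated where MM reached 50% in both, and mixed otherwise. Of 4725 lincRNA genes, 2583 had enough sites, and the other 2142 are in no class. Unmodified promoters numbered 302 (11.7%, exact 95% interval 10.5% to 13.0%), against 48.7% of all 17490 lincRNA and protein-coding promoters together. Methylated promoters numbered 1303 (50.4%, 48.5% to 52.4%), against 18.1% of all promoters, and 978 (37.9%) were mixed, against 33.3%. Among protein-coding promoters 55.1% were unmodified and 12.4% methylated. CpG content went with these calls: 184 of 256 dense lincRNA promoters (71.9%) were unmodified and 3 methylated, whereas 25 of 1509 poor promoters (1.66%) were unmodified and 949 (62.9%) methylated. Poor protein-coding promoters were likewise rarely unmodified, 83 of 2660 (3.12%), and largely methylated, 1459 (54.8%). In the intermediate class 93 of 818 lincRNA promoters (11.4%) were unmodified, against 36.1% of intermediate protein-coding promoters. These intervals, by the Clopper-Pearson method, cover counting error only. The shares moved with the number of sites a promoter must have: with at least 10 sites in each replicate, 26.5% of 849 lincRNA and 69.7% of 9664 protein-coding promoters were unmodified, and within the dense, intermediate and poor lincRNA classes 80.1%, 19.3% and 4.01%. Methylated lincRNA promoters were then 32.3%. With promoters of 500 bp either side of the start, 24.5% of lincRNA promoters were unmodified and 38.5% methylated. With at least 10 calls per site 20 lincRNA promoters had enough sites, of which 8 (40%) were unmodified and 2 (10%) methylated.

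**Figure D3:**
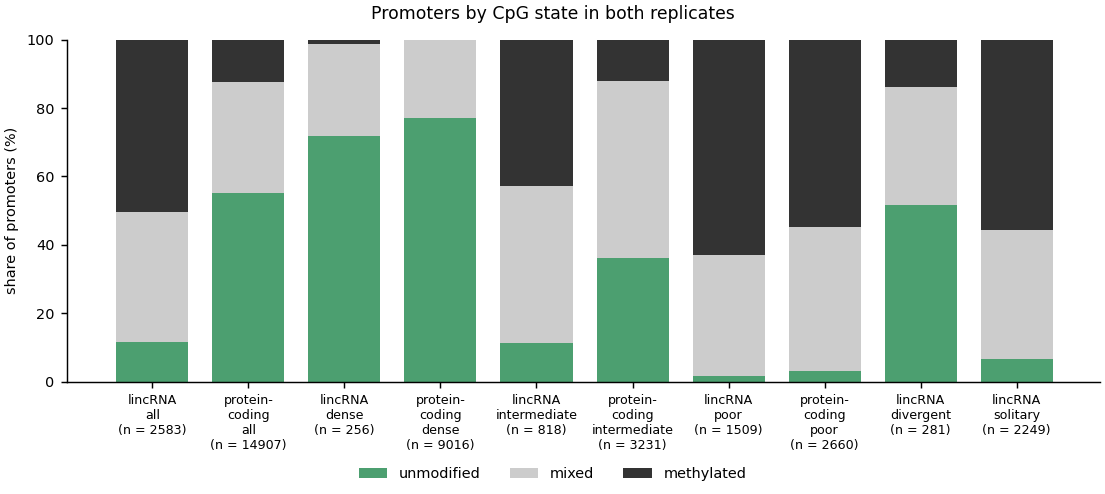
Share of promoters (percent, y axis from 0 to 100) that were unmodified (green), mixed (grey) or methylated (black) in both replicates, by gene class, CpG class and, for lincRNA genes, by position relative to protein-coding genes, with the number of promoters that had enough sites under each bar. Dense promoters were 71.9% unmodified at lincRNA and 77.2% at protein-coding genes, and solitary lincRNA promoters are mostly methylated (55.7%). Of dense solitary lincRNA promoters, which have no bar, 63.2% were unmodified.

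Some lincRNAs start head to head with a protein-coding gene, and these divergent starts were higher in CC than solitary ones. A start was called divergent where the nearest protein-coding start lay within 5 kb upstream and ran on the opposite strand (361 genes), and solitary where none lay within 5 kb (4297 genes), with 67 genes in neither group. Divergent promoters had 81.5% and 75.5% CC in replicates 1 and 2, and solitary promoters 31.9% and 29.3%. MM was 11.8% and 15.9% at divergent and 47.9% and 51.0% at solitary promoters. HC/CH was 2.18% and 2.32% against 4.87% and 4.53%, and HM/MH was 1.15% and 1.13% against 4.16% and 2.86% as called and 0.583% and 0.988% against 1.88% and 2.53% after correction. Divergent promoters were thus lower in each of these modified classes (adjusted p at most 8.32e-06 in both replicates, exact sign-flip test). Dense promoters were 49.03% of divergent and 3.07% of solitary starts. With the nearest protein-coding start within 2 kb, where the promoter windows of both genes overlap, 273 genes were divergent. Sites in such overlaps counted for the lincRNA promoter too, so divergent values are partly those of protein-coding promoters. Solitary promoters hold no such sites by definition. Without sites within 1 kb of a protein-coding start, lincRNA promoters differed from protein-coding promoters by -45.6 percentage points in CC, in place of -39.8 (means over replicates). Within intermediate promoters CC was 73.7% and 70.7% at the 76 divergent genes and 38.1% and 36.7% at the 1033 solitary genes. CpG content was not matched within a class: these groups had 2451 and 23043 covered sites in replicate 1. Within dense promoters it was 93.2% and 89.9% at 177 divergent and 86.3% and 82.1% at 132 solitary genes, and within poor promoters 34.9% and 30.0% against 22.5% and 19.9%. The order of divergent above solitary in CC was the same in each CpG class and replicate, though not tested within classes. HC/CH was lower at divergent genes in dense and intermediate promoters. In poor promoters it was higher there, at 5.57% and 4.55% against 4.99% and 4.41%. Of 281 divergent promoters with enough sites 145 (51.6%) were unmodified, and of 2249 solitary promoters 148 (6.58%). Among dense promoters these were 119 of 151 divergent (78.8%) and 60 of 95 solitary ones (63.2%).

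Inside the genes the order of HC/CH was the opposite of that at promoters. LincRNA exons had 4.71% and 4.19% HC/CH, below the 5.44% and 4.82% of protein-coding exons (adjusted p = 6.54e-06 and 0.00163, exact sign-flip test). LincRNA introns had 3.88% and 3.22%, below the 4.72% and 4.01% of protein-coding introns, lower on all 19 autosomes in both replicates (adjusted p = 6.54e-06 in each, exact sign-flip test). The intron difference was -0.812 ± 0.0398 percentage points (SD, n = 2). Methylation lay on the other side: introns had 59.5% and 63.5% MM against 57.2% and 61.5%, and 14.1% and 15.7% MC/CM against 13.3% and 14.9%. CC in introns was 17.9% and 15.1% against 20.02% and 16.8%. LincRNA introns were thus more methylated, and lower in CC and HM/MH, than protein-coding introns (adjusted p at most 2.20e-05 for CC, MM, MC/CM and HM/MH in both replicates, exact sign-flip test). The sizes depended on the weighting: with genes rather than sites weighted equally, the mean difference over replicates was 5.29 percentage points for MM in place of 2.19 and -5.61 for CC in place of -1.85. HM/MH as called then no longer passed, at 0.000718 in place of -0.255 (larger adjusted p = 0.0501, exact sign-flip test), whereas HC/CH still passed at -0.841. HM/MH as called was 4.14% and 2.35% in lincRNA introns against 4.33% and 2.67%, and after correction 1.26% and 1.99% against 1.57% and 2.30%. In exons, MC/CM was 12.2% and 14.1% against 10.6% and 12.3% and passed in both replicates, whereas MM passed in replicate 1 alone (adjusted p = 0.00345 and 0.175, exact sign-flip test), as HM/MH as called did in replicate 2 alone (adjusted p = 0.150 and 1.23e-04, exact sign-flip test). The exon MM difference, 2.41 percentage points over replicates, passed in both with genes weighted equally, at 3.87 (larger adjusted p = 6.04e-05, exact sign-flip test), with promoters of 500 bp either side, at 3.05 (0.0475), and with genes of at least 1 kb and 2 exons, at 2.68 (0.0444). It was 0.237 with at least 10 calls per site (0.651). With at least 10 calls per site, exon HC/CH and MC/CM did not pass (larger adjusted p = 0.216 and 0.0791, exact sign-flip test). After correction, exon HM/MH was 1.74% and 2.40% against 1.97% and 2.75% and passed in both replicates (adjusted p = 0.00159 and 1.02e-04, exact sign-flip test).

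Against DNA outside all annotated genes, lincRNA exons had more HC/CH and CC and less MM, whereas introns differed in CC and MM in the opposite direction and by less. Exons exceeded intergenic DNA in HC/CH, with 4.71% and 4.19% against 3.84% and 3.27%, and in CC, with 22.9% and 19.7% against 18.95% and 16.2%, and had less MM, with 55.3% and 59.0% against 58.7% and 62.4%. Each of these differences held on all 19 autosomes in both replicates (adjusted p = 1.14e-05, exact sign-flip test). With at least 10 calls per site HC/CH still passed, but CC and MM did not (larger adjusted p = 0.125 and 0.0581, exact sign-flip test). With genes weighted equally all 3 passed at smaller sizes, the mean differences over replicates being 0.559 percentage points for HC/CH (0.895 over sites), 1.71 for CC (3.71) and -1.81 for MM (-3.42). HC/CH in introns, at 3.88% and 3.22%, did not differ from intergenic DNA past the threshold (adjusted p = 0.265 and 0.840, exact sign-flip test), and the interval of the difference was -0.0446 to 0.186 percentage points in replicate 1 and -0.164 to 0.130 in replicate 2. Introns had more MM than intergenic DNA, by 0.811 and 1.03 percentage points (adjusted p = 0.00411 and 0.00341, exact sign-flip test), and less CC, with differences of -1.01 and -1.08 (adjusted p = 3.81e-04 and 4.86e-04, exact sign-flip test). With genes weighted equally both turned sign and did not pass, at -0.465 for MM and 0.203 for CC (larger adjusted p = 0.124 and 0.653, exact sign-flip test). With that weighting, HC/CH in introns was 0.202 percentage points above intergenic DNA (larger adjusted p = 0.0454, exact sign-flip test). Within lincRNA genes, exons held more HC/CH than introns by 0.830 and 0.964 percentage points, on all 19 autosomes in both replicates (adjusted p = 6.54e-06, exact sign-flip test), a comparison added after the data were seen. Exons also had more CC than introns, by 4.99 and 4.52 percentage points. With genes weighted equally both differences passed at smaller sizes, 0.356 in place of 0.897 for HC/CH (larger adjusted p = 0.0283, exact sign-flip test) and 1.51 in place of 4.76 for CC.

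HC/CH over the sites in lincRNA gene bodies went with the state of the promoter. Bodies were taken outside all promoters of the same gene class, and levels are means over sites, not weighted by gene. In the bodies of the 302 genes with unmodified promoters, with 27477 and 10801 sites in replicates 1 and 2, HC/CH was 5.36% and 4.77%. It was 4.65% and 4.12% at the 978 genes with mixed promoters, and 4.02% and 3.32% at the 1303 genes with methylated promoters. The bodies of genes with unmodified promoters were higher than those of genes with methylated promoters on 19 and 18 of 19 autosomes in replicates 1 and 2. They also held more CC, at 29.2% and 25.4% against 15.8% and 12.9%, and less MM, at 49.2% and 52.9% against 61.3% and 65.5%. HM/MH as called rose slightly in replicate 1, at 4.16%, 4.29% and 4.32% from unmodified to methylated, and in replicate 2 was 3.04%, 2.68% and 2.49%. It was higher with unmodified than with methylated promoters on 4 and 12 of 19 autosomes in replicates 1 and 2. After correction HM/MH was 1.79%, 1.62% and 1.36% in replicate 1 and 2.70%, 2.33% and 2.13% in replicate 2, so the order of the called values in replicate 1 was the reverse of the corrected one. At protein-coding genes HC/CH was 5.30% and 4.55% with unmodified promoters and 4.46% and 3.75% with methylated promoters. This is a description chosen after the data were seen, because promoter and body come from the same reads of a library.

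Asymmetric states have a strand, and the modified cytosine was counted on the sense strand of each gene (that of the transcript) against the antisense strand. LincRNA genes showed no strand difference that passed in both replicates in any of the 9 comparisons of MC/CM, HC/CH and HM/MH at promoters, exons and introns. The differences ran from -0.0771 to 0.0957 percentage points in replicate 1 and from -0.238 to 0.0961 in replicate 2, where fewer sites widen the intervals. The only one to pass in replicate 1, HM/MH in exons with more 5-hydroxymethylcytosine on the sense strand (adjusted p = 0.0284, exact sign-flip test), had the opposite sign in replicate 2 (-0.0757 percentage points, adjusted p = 0.468, exact sign-flip test). HC/CH in introns, the comparison with the narrowest intervals for that form, differed by -0.00682 and -0.0266 percentage points between the strands, with intervals of -0.0305 to 0.0173 and -0.0667 to 0.0204.

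Protein-coding introns, treated in the same way, had less HM/MH with the 5-hydroxymethylcytosine on the sense strand, by -0.0627 and -0.0547 percentage points on all 19 autosomes (adjusted p = 6.87e-05 in both replicates, exact sign-flip test). That difference did not pass with at least 10 calls per site (mean over replicates -0.0497, larger adjusted p = 0.289, exact sign-flip test) or with genes weighted equally (-0.0532, larger adjusted p = 0.0833). In lincRNA introns the same quantity was -0.0147 and 0.0331 percentage points. The strand difference of lincRNA introns lay above that of protein-coding introns by 0.0480 and 0.0878 percentage points, on 16 of 19 autosomes in each replicate (adjusted p = 0.00288 and 0.00158, exact sign-flip test). That test was added after the data were seen, and it no longer passed when only sites covered in both replicates were used (mean over replicates 0.0741, larger adjusted p = 0.0611, exact sign-flip test) or when genes were weighted equally (0.067, larger adjusted p = 0.512, exact sign-flip test). For scale, HM/MH as called in lincRNA introns was 2.06% with the sense and 2.08% with the antisense strand hydroxymethylated in replicate 1, and 1.19% and 1.16% in replicate 2. All strand values, also those of single genes, are as called. Corrected HM/MH in lincRNA introns, both strands together, was 1.26% and 1.99%, against 4.14% and 2.35% as called.

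**Figure D4:**
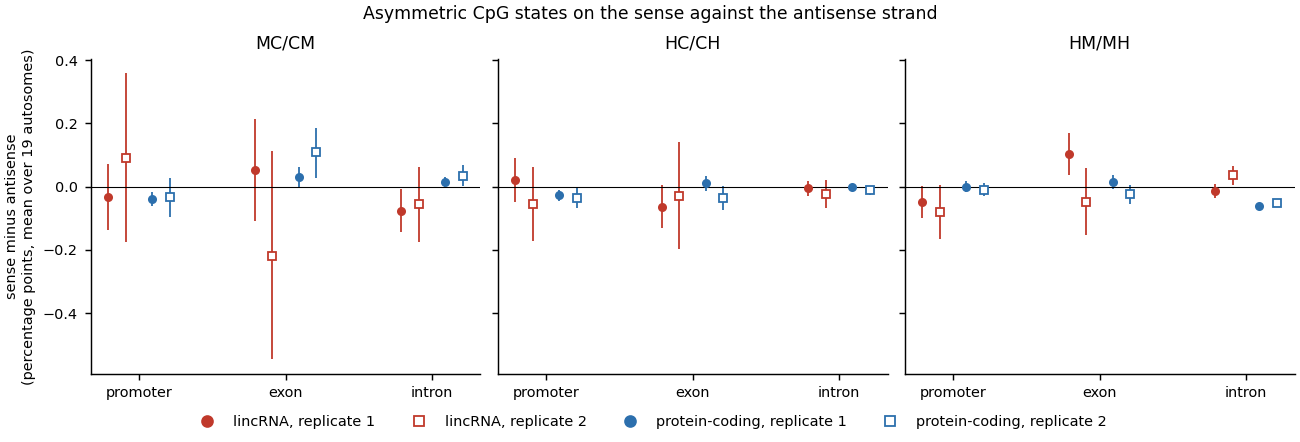
Sense minus antisense level of MC/CM, HC/CH and HM/MH (percentage points, mean over 19 autosomes, with the 95% interval from the sign-flip test as bars) at promoters, exons and introns of lincRNA genes (red) and protein-coding genes (blue), with filled circles for replicate 1 and open squares for replicate 2. LincRNA values scatter around 0 with wide intervals, and HM/MH in protein-coding introns lies below 0 in both replicates.

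No single lincRNA gene had a strand difference that passed in both replicates. Genes with at least 50 asymmetric calls of a form in each replicate were tested with an exact binomial test, adjusted over all lincRNA and protein-coding genes. Of 1057 lincRNA genes tested for MC/CM, 0 passed, as did 0% of all 10417 genes tested, and 8 lincRNA genes had an unadjusted p under 0.05 in the same direction in both replicates, as did 113 of all 10417 genes. For HC/CH 122 lincRNA genes were tested and 0 passed (0% of 3901 genes), with 0 lincRNA genes and 13 of all 3901 at an unadjusted p under 0.05 in the same direction in both replicates. For HM/MH 59 were tested and 0 passed (0% of 2296 genes), with 1 lincRNA gene and 9 of all 2296 at that unadjusted level. In replicate 1 alone 10 of 2841 lincRNA genes passed for MC/CM (0.352%, against 0.598% of all 18226 genes tested), 7 with more 5-methylcytosine on the sense strand and 3 on the antisense strand. There, 329 of the 2841 lincRNA genes and 2268 of all 18226 had an unadjusted p under 0.05. The binomial test covers counting error only. Over the 14 listed genes tested, the sense share of MC/CM ran from 45.4% at Mir9-3hg to 54.1% at Platr22 in replicate 1 and from 38.5% at Platr28 to 63.5% at Mir124-2hg in replicate 2. At Pvt1 it was 49.9% and 46.6%, at Pantr1 46.8% and 42.6%, and at Rmst 46.1% and 57.4%, on opposite sides of even in the replicates. The number of calls per gene limits what this test can detect. On simulated MC/CM calls, it recovered 15.5% of changed genes at a sense share of 60% and 72.5% at 70%. The 200 changed genes were drawn from 10507 lincRNA and protein-coding genes together, with calls independent of each other. Recovery among lincRNA genes alone was not measured. HC/CH and HM/MH were not simulated for this test.

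Genes of known function were followed in 5 lists, and the median promoter CC of each list lay above that of lincRNA genes at large. The median promoter CC over all 2583 lincRNA promoters with enough sites was 21.9% and 18% in replicates 1 and 2. It was 91.1% and 90.8% over 10 housekeeping, nuclear and small nucleolar RNA host genes, 84.2% and 80.2% over 18 pluripotency-linked genes, 80.8% and 54.5% over 5 microRNA host genes, 62.4% and 52.6% over 4 developmental genes and 52.6% and 53.6% over 2 imprinted genes. Unmodified promoters numbered 7 of 10, 8 of 18, 2 of 5, 1 of 4 and 0 of 2 in the same order, against 302 of 2583 lincRNA genes. Methylated promoters were found at 1 developmental and 1 imprinted gene. Dense promoters numbered 7 of the 10 housekeeping genes and 1 of the 24 pluripotency-linked genes in the list. The lists were not drawn at random, so these counts are descriptions. Their names are labels: the housekeeping list also holds Pvt1 and the p53-induced Trp53cor1, and the pluripotency-linked list the p53-induced Lncpint.

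**Figure D5:**
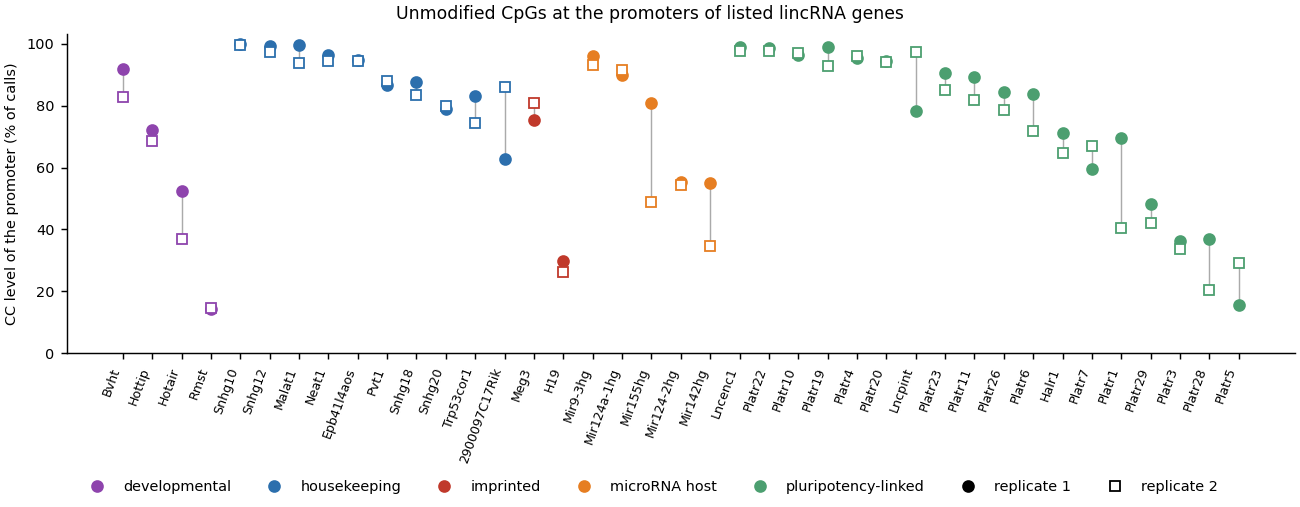
CC level of the promoter (percent of calls, y axis from 0) of the 39 listed lincRNA genes with at least 5 covered promoter sites in each replicate, coloured by list, with filled circles for replicate 1, open squares for replicate 2 and a line joining them. Most housekeeping genes lie above 80%, H19, Rmst and Platr5 lie below 30%, and the pluripotency-linked genes span the range from 98.9% (Lncenc1) to 15.5% (Platr5).

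The abundant nuclear RNAs had unmodified starts and unlike bodies. At Malat1 (chr19:5795690-5802672), the nuclear speckle RNA, promoter CC was 99.4% and 93.8%, and the whole gene was 91.6% and 88.3% CC. At Neat1 (chr19:5824708-5845478), the scaffold of paraspeckles, promoter CC was 96.2% and 94.3%, but the gene was 41.9% and 39.4% CC, with 7.12% and 8.23% HC/CH. These neighbours on chromosome 19 thus shared an unmodified promoter and differed in the gene. Pvt1 (chr15:62037986-62378096), a long gene next to Myc, had 86.8% and 87.8% promoter CC and 6.75% and 5.62% HC/CH over 2287 and 1020 sites in the gene. The small nucleolar RNA hosts Snhg10 and Snhg12 had 95.4% and 96.0% CC and 96.8% and 93.4% CC over the genes. Outside the promoters, where few sites were covered, CC was 87.5% and 91.4% at Snhg10 and 85.8% and 71.7% at Snhg12. Trp53cor1, a p53-induced lincRNA, had 83.2% and 74.2% promoter CC and was called mixed, as were Snhg20 (78.9% and 79.9%) and 2900097C17Rik (62.6% and 86.1%). The remaining members, Snhg18 and Epb41l4aos, were unmodified, at 87.7% and 83.3% and at 94.5% and 94.4%.

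Pluripotency-linked lincRNAs include the Platr genes, named as pluripotency-associated transcripts of mESCs, and Lncenc1, which is expressed in naive mESCs. The 8 unmodified promoters were those of Lncenc1, Platr4, Platr10, Platr11, Platr19, Platr20, Platr22 and Platr23. Of these, Platr10 and Platr11 have CpG-poor promoters, and Platr10 had 96.3% and 97.0% promoter CC over 20 and 11 sites, and 93.8% and 97.1% CC over the gene. An unmodified state was rare among poor promoters of either kind, at 1.66% of lincRNA and 3.12% of protein-coding ones. The genes behind these promoters differed in HC/CH, which was 7.60% and 10.4% at Platr19, 8.62% and 8.22% at Platr4 and 2.27% and 0.649% at Platr10, against a median of 3.803% and 3.004% over the 1096 lincRNA genes with at least 50 sites in each replicate. Each of these had fewer than 50 sites in replicate 2, so they are outside that median. Over the 6 pluripotency-linked genes with 50 sites in each replicate, the median HC/CH was 5.43% and 4.99%, and Platr6 was the highest of the 6, at 8.57% and 7.52%.

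The 10 mixed promoters of the pluripotency-linked list differed widely in HC/CH. Platr5 had 14.1% and 14.001% HC/CH in its promoter, over 11 and 6 sites, with 15.5% and 29.2% CC. Platr3 had 12.4% and 11.02% HC/CH over 13 and 9 sites, and Platr29 9.71% and 8.17% over 18 and 10 sites. At Platr28 it was 5.71% and 1.85%, at Platr26 2.36% and 0%, at Halr1 3.71% and 1.43%, and at Lncpint 4.603% and 0%. These promoters hold few sites, and the median promoter HC/CH over lincRNA genes was 4.35% and 3.33%. Lncpint, a p53-induced lincRNA with 1497 and 525 sites in the gene, had 78.2% and 97.1% promoter CC and 5.56% and 3.77% HC/CH in the gene. Halr1, which lies by the HoxA cluster, had 71.001% and 64.6% promoter CC. The other mixed promoters were those of Platr6 (83.8% and 71.9% CC), Platr26 (84.5% and 78.6%), Platr1 (69.5% and 40.6%), Platr7 (59.4% and 66.8%) and Platr28 (37.0% and 20.6%). Promoters of the other members that were covered by too few sites were those of Eprn, Platr2, Platr13, Platr15, Platr27 and Platr30, of which Platr2, Platr27 and Platr30 had no covered promoter site at all.

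Among imprinted genes, H19, transcribed from the maternal chromosome, was called methylated with 52.7% and 52.8% MM at its promoter and 29.9% and 26.4% CC, over 21 and 6 sites. Meg3, also maternally expressed, had 75.4% and 80.9% promoter CC with 15.7% and 15.6% MM, so the promoters of these imprinted genes differed. HC/CH over the Meg3 gene was 5.98% and 5.01%. Mirg, a microRNA-bearing transcript downstream of Meg3, had too few promoter sites in replicate 2, and its CpG-poor promoter was 70.7% and 76.0% MM, from 24 and 4 sites.

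Developmental lincRNAs covered a wide range. Rmst, a regulator of neurogenesis, had a promoter called methylated, with 57.2% and 66.8% MM and 14.2% and 14.6% CC over 9 and 6 sites, and HC/CH of only 2.80% and 2.64% over the gene. Bvht, a cardiac lincRNA, had 91.8% and 82.6% promoter CC. Hottip and Hotair were mixed, with promoter HC/CH above the lincRNA median: Hottip, at the end of HoxA, had 7.99% and 9.95% HC/CH with 72.2% and 68.4% CC at its promoter, and Hotair, in HoxC, had 11.6% and 7.41% HC/CH with 52.6% and 36.8% CC. Pantr1, Miat and Carmn had under 5 promoter sites in replicate 2, and in replicate 1 their promoter CC was 99.8%, 79.8% and 25.8%. In replicate 2 it was 100% over 2 sites at Pantr1, 20% over 4 sites at Miat and 19.2% over 3 sites at Carmn. Of the microRNA hosts, Mir9-3hg and Mir124a-1hg, which host neuronal microRNAs, were unmodified at 95.8% and 93.2% and at 90.0% and 91.4% CC. Mir155hg, the host of an immune-cell microRNA, had 80.8% and 48.9% CC over 43 and 6 sites, so its replicates lay far apart. Mir124-2hg (55.5% and 54.5%) and Mir142hg (55.1% and 34.7%) were mixed, and Mir17hg and Mir670hg had 4 promoter sites each in replicate 2.

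Over the 1096 lincRNA genes with at least 50 sites in each replicate, HC/CH had the highest rank correlation between replicates of the hydroxymethylated classes. The interquartile range of HC/CH was 2.87% to 5.05% in replicate 1 and 1.95% to 4.38% in replicate 2. Spearman's rho between replicates across these genes was 0.827 for HC/CH, 0.478 for HM/MH, 0.626 for MC/CM and 0.927 for CC, where genes share 2 libraries and their depth, so no p is given. The 11177 protein-coding genes that met the same rule had a median HC/CH of 4.94% and 4.16%.

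The lincRNA genes with the highest HC/CH, ranked by the lower replicate, were solitary genes with CpG-poor promoters, as most lincRNA genes are (4297 of 4725 solitary, 69.4% poor). Gm3143 (chr3:34699640-34716662) had 10.1% and 10.96% HC/CH over 150 and 54 sites, with 27.4% and 26.5% CC and 46.9% and 42.6% MM. C330019F10Rik (chr11:107511403-107527220) followed with 10.2% and 9.37%, and AC091309.2 (chr17:83998554-84013408) with 8.95% and 9.38%. B930092H01Rik had 8.26% and 11.96%, and A730036I17Rik 8.09% and 8.63%. All of these lay below the lincRNA median for MM, 60.6% and 65.1%, in both replicates. The genes were chosen for these values, which are a description.

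As called, HM/MH ranked other genes first. Gm49709 (chr16:90349417-90362580) had 6.56% and 6.02% HM/MH as called, and AU020206 (chr7:75769038-75782099), with a dense promoter, 5.98% and 6.89%. Gm36231, Gm47865 and Gm5086 came next, at 5.62% and 6.70%, 5.83% and 5.60%, and 5.59% and 6.70%. The median over lincRNA genes was 4.11% and 2.30%. After correction Gm49709 had 4.12% and 5.81% and AU020206 4.03% and 6.75%. At Gm36231, Gm47865 and Gm5086 corrected HM/MH was 3.17% and 6.43%, 2.79% and 5.39%, and 3.31% and 6.46%. AC091309.2, one of the first 5 for HC/CH, had 3.65% and 5.73% corrected HM/MH, within the range of these genes.

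The genes highest in hemimethylation had little HC/CH. 1700128A07Rik (chr14:106417187-106486520) had 18.6% and 20.6% MC/CM, with 61.8% and 71.6% MM and 2.25% and 0.807% HC/CH. Gm49126 (chr15:16496911-16549904) had 18.6% and 21.1% MC/CM with 1.99% and 1.93% HC/CH. Gm49180, Gm32067 and Gm38477 had 18.6% and 18.5%, 18.3% and 18.7%, and 18.3% and 20.3% MC/CM. In each of these genes HC/CH lay below the lincRNA median of 3.803% in replicate 1 and 3.004% in replicate 2. The median MC/CM over lincRNA genes was 13.9% and 15.6%.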

How the data were processed

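SCoTCH-seq was run by the authors on genomic DNA of 2 passages of E14 mESCs. Per the labels and the paper's methods, read pairs were trimmed with Cutadapt 4.6, aligned with BSBolt to mm10 (GRCm38), deduplicated with Picard 3.1.1 and called as 1 of 9 CpG states. The authors deposited, for each replicate, counts of each state at each CpG site with at least 5 calls outside blacklisted regions, and the percent of calls of each state, which was recomputed from the counts and not used otherwise. Neither was corrected with the spike-in duplexes.

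All 18248820 autosomal sites fell on a CpG of the GRCm38.p6 reference. Genes came from GENCODE vM21. Levels are means of per-site percentages, where a site in several features counts for the promoter before the exon and the exon before the intron. Sites in genes of both strands were left out of strand comparisons. Corrected levels solve the linear equations of the call rates of the same replicate. Tests were exact two-sided sign-flip permutation tests over 19 autosomes within each replicate, with Benjamini-Hochberg adjustment over the 36, 24, 36, 36, 12, 12 and 18 tests of each comparison and a threshold of 0.05; the smallest p the test gives is 3.8e-06. Intervals of differences, at 95%, invert that test. Strand differences of single genes used exact binomial tests. Named genes were the listed genes and the 5 highest genes for each asymmetric class among those with at least 50 sites in each replicate; no gene passed the strand test to be named. The members, lists and tests were chosen with earlier results of these data known. The level differences at promoters and introns and the strand test of single genes were tested on simulated data with known answers. The largest error of a simulated level difference was 0.168 percentage points. All sites of a set had the same simulated state shares, so this value covers counting error only. The strand test, simulated for MC/CM with independent calls over lincRNA and protein-coding genes together, recovered 31 of 200 changed genes at a sense share of 60%. At 70% it recovered 145. Replicate 1 had a mean depth of 10.6 and replicate 2 of 6.37 calls. Python 3.11.15, NumPy 2.4.6, pandas 2.3.3, SciPy 1.17.1, pysam 0.24.0 and Matplotlib 3.10.9 were used. Sex chromosomes and transcript levels were not analysed here. The promoter sequence of 1 further listed gene is not reported here.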

Additional observations from a re-analysis of the deposited data

How the results depend on the processing

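Each of 47 results was recomputed under the alternatives that apply, as the mean over replicates, which gave 449 values. Of these, 20 fell short of the threshold, 13 newly passed it, 12 counts or shares moved and 12 turned sign, and the others kept direction and side. Requiring 10 calls per site left exon HC/CH (lincRNA minus protein-coding, -0.547 percentage points), intermediate promoter HC/CH (1.12) and poor promoter CC (-3.13) short of the threshold, among 13 results in all, and turned poor promoter HC/CH to 0.0417 and intron minus intergenic HC/CH to 0.0474. With genes weighted equally the sign turned for intron HM/MH against protein-coding introns (0.000718), for intron minus intergenic CC (0.203), MM (-0.465) and HC/CH (0.202), and for poor promoter HC/CH (0.105). Intron minus intergenic HC/CH was 0.00231 with calls summed over sites and ran from -0.044 to 0.0411 when a replicate was left out. The dense promoter CC difference passed with genes weighted equally (-4.54), with promoters of 500 bp either side (-2.58) and with genes of at least 1 kb and 2 exons (-2.35). With all transcript starts, where the CpG class is still that of the gene's first start, it was 24.3, and HC/CH was -1.38 in dense and 0.202 in poor promoters. Unmodified lincRNA promoters were 40% at 10 calls per site (8 of 20 promoters), 26.5% at 10 sites per promoter, 24.5% at 500 bp and 9.78% to 13.3% in single replicates, and methylated ones 10%, 32.3%, 38.5% and 59.1% to 62.5%. Protein-coding promoters were unmodified in 75.3%, 69.7% and 76.9% under the first of these settings in that order. Strand comparisons of lincRNA genes past the threshold numbered 0 to 1 of 9 in single replicates, and lincRNA genes called for MC/CM 0 to 10. The strand difference of lincRNA against protein-coding introns in HM/MH no longer passed at 0.0741 (sites in both replicates) and 0.067 (genes weighted equally). The cause of these changes was not tested. At 10 calls per site no lincRNA gene could be tested for HM/MH by strand. No paired analysis was possible because both samples belong to 1 group.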

Other observations

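Around the ends of lincRNA genes HC/CH and CC stayed within a narrow range. In the 200-bp bins just upstream and just downstream of the annotated end, HC/CH was 4.40% and 4.31% in replicate 1 and 3.85% and 3.62% in replicate 2, and in the bin centred 5900 bp upstream of the end it was 4.74% and 4.34% in replicates 1 and 2. CC in the bins at the end was 25.5% and 25.2% in replicate 1 and 23.7% and 21.6% in replicate 2. These values were not tested.

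LincRNA genes had a median length of 7634 bp, against 17629 bp at protein-coding genes. Of the 4725 lincRNA genes, 3251 have only a Gm number as a name and 976 a Rik name, 298 have a single exon block, and 2444 lie on the plus and 2281 on the minus strand.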
